A study of Homo sapiens with 22 samples.

Results

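Replication-dependent histone genes were taken as all gene symbols that begin with HIST1H, HIST2H or HIST3H and that had at least 10 unique molecular identifiers (UMIs, each 1 captured mRNA molecule) in total in a single-cell experiment. Of 70 such symbols in each gene table, 62 members remained in experiment 1, 54 in experiment 2 and 63 in experiment 3. A total of 63 genes were members in at least 1 experiment and 53 were members in all 3. Experiments 1 and 2 drew on tables of 33538 and 36601 genes, and experiment 3 on 36601 genes. In experiment 3 the members were 6 genes of the linker histone H1, 16 of H2A, 17 of H2B, 12 of H3 and 12 of H4. The members closest to the limit there were HIST1H3J with 11 UMIs and HIST2H2AA3 with 12 UMIs. HIST2H3C with 9 UMIs and HIST3H3 with 5 UMIs lay just outside it.

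Cells copy their chromatin along with their DNA, and the bulk of the histone proteins for the new copy is made in S phase from this gene family. H2A, H2B, H3 and H4 form the nucleosome core and H1 binds the linker DNA between cores. The genes are short, have no introns and sit in clusters, and their mRNAs are known to end in a conserved stem-loop in place of a poly(A) tail. The stem-loop is bound by SLBP, which acts in 3′ end formation, translation and decay of these mRNAs. Because the single-cell chemistry primes on stretches of A, mRNAs without a tail are captured with unknown efficiency, and the level of 1 member against another is not a measure of their mRNA amounts.

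The study profiled human melanoma cell lines by droplet single-cell RNA sequencing with a 10x 3′ chemistry. Experiment 1 held 12531 untreated WM989 cells, a BRAF-mutant line, in 8 wells that carried cells sorted for high EGFR and NGFR or a mixed population, expanded after the sort and marked with a lineage barcode. Wells 1 to 4 were replicate r1 and wells 5 to 8 replicate r2, and no label used here gives the sort of a well. Experiment 2 held 1449 untreated cells of WM983B, a second melanoma line, in 1 library. Experiment 3 held 40021 WM989 cells in 8 libraries, with replicates r1 and r2 of Control, of TGFB1 (the cytokine TGF-β1), of TGFBRi (the TGF-β receptor inhibitor LY2109761) and of PI3Ki (the PI3K inhibitor GDC-0941). Within a replicate the 4 treatments began from 1 sorted and barcoded well whose cells were divided over the plates, and the 2 replicates went through these steps side by side from wells of their own, all of the same line. The replicates are Mix and Primed in the sample labels but r1 and r2 in the labels of the cells, and the 2 sets of names could not be matched. Whether Mix and Primed name unlike starting cells in this experiment is not given in the sources used here. The authors called 2 states from clusters, primed cells (the state linked to surviving drug) and drug-susceptible cells, and a cell cycle phase (G1, S or G2M) for each cell. In each treatment of experiment 3 r2 held a larger share of primed cells than r1, with 4.47% against 2.26% in Control. Chromatin accessibility came from 12 ATAC-seq libraries of WM989, with 3 each of cells sorted as EGFR-High, NGFR-High or EGFR-NGFR-High and of a population labelled Mix. The study's methods for this assay list cells negative for both markers and do not use the name Mix, so what Mix holds is not given in the sources used here.

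Wells of experiment 1 held 35882876 to 177318308 UMIs, the library of experiment 2 held 102738398 and the libraries of experiment 3 held 70239657 to 122420544. The markers of the melanocytic lineage were present, with PMEL at 1623 CPM (UMI counts scaled to a common total, the usual depth-corrected unit) in experiment 1, 569.7 in experiment 2 and 2555 in experiment 3. Defining markers of other cell types were near 0, except PECAM1 at 5.97 CPM in experiment 1, where 14.4% of cells had a UMI. In experiment 1, 19 cell barcode sequences occurred in more than 1 library, and in experiment 3 this number was 194. These cells were kept.

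The stem-loop that sets these mRNAs apart was looked for in the annotated transcripts, as 6-base complementary arms in the pattern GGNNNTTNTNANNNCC within 150 bases after the stop codon on the coding strand. It was found in 61 of 63 members (96.83%) and in 72 of 19924 protein-coding genes (0.3614%), a count that includes the members. HIST1H2AG and HIST1H2AK had no match in this window. The 61 loops fell into 8 distinct sequences of 16 bases. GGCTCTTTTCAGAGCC occurred in 37 members of the H1, H2A, H2B and H3 classes and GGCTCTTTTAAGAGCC in 9 members. H4 members carried loops with a different arm, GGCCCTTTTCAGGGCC in 8 and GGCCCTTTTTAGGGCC in 3. The loops of members that the results turn on are shown 5′ to 3′ on the coding strand with 5 bases either side, and capitals mark the loop and its arms.
HIST1H4C: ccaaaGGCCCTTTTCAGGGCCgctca
HIST1H1B: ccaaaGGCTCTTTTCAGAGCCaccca
HIST1H1A: ccaacGGCTCTTTTAAGAGCCaccta
HIST1H1D: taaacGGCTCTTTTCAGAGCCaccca
HIST2H2AC: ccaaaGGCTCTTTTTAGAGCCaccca
HIST1H3G: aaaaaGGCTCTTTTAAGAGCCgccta
HIST3H2A: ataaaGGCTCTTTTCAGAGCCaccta
HIST1H2AC: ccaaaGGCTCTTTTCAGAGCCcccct
HIST1H2BD: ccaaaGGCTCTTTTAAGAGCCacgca

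All 63 members have 1 exon in the canonical transcript of GENCODE 44 on hg38, and 51 lie on chromosome 6 and 12 on chromosome 1. HIST1H4C (ENSG00000197061) lies on the plus strand at chr6:26103933-26104337. HIST1H1A lies on the minus strand at chr6:26017032-26017787 and HIST1H1B, also on the minus strand, at chr6:27866792-27867588. HIST1H2AC (ENSG00000180573) lies on the plus strand at chr6:26124172-26124690. HIST3H2A (ENSG00000181218) lies outside the large cluster, on the minus strand at chr1:228457364-228457873. The loop shown above for HIST1H4C covers chr6:26104317-26104332, in the 3′ untranslated part of its exon. Some members are close copies. In 14 members most 43-base windows were shared with another gene, and in 22 members none was, so reads of the first group can have been split or dropped in counting. HIST1H3D had 0 UMIs in experiment 1, where the overlapping gene AL031777.3 had 6352 UMIs, and the sum of the H3 class was therefore not compared between experiments.

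In the 8 libraries of experiment 3 the members summed to 1914 to 2780 CPM, with a mean of 2465 CPM ± 303 (SD, n = 8). H4 members gave 1123 CPM ± 143 of this and H1 members 848 CPM ± 136. H2A members summed to 271 CPM ± 44.5, H3 members to 138 CPM ± 28.8 and H2B members to 86.0 CPM ± 12.1. H4 and H1 therefore held most of the captured molecules, although they are 18 of the 63 members. HIST1H4C, which encodes core histone H4, had 1081 CPM ± 137 (SD, n = 8), between 904 and 1244 CPM, and alone gave 44.02% of all member UMIs. It was followed by the linker histone genes HIST1H1D with 365 CPM ± 58.9 and HIST1H1B with 204 CPM ± 35.2. The next were HIST1H1C with 157 CPM ± 24.3, HIST2H2AC (H2A) with 119.4 CPM ± 29.99 and HIST1H1E with 100.8 CPM ± 16.001. These levels were not divided by length, since 3′ UMIs do not scale with it.

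HIST1H4C also stood apart in its sequence. The richest window of 20 bases in its transcript held 18 A, printed here with A in capitals as AAAAAAcAAAAAcAAAAAAA, at chr6:26104291-26104310 between the stop codon and the loop. No other member held more than 13 A in 20 bases. The median level in all cells of experiment 3 was 2.34 CPM over the 19 members with 7 to 9 A, 3.99 CPM over the 34 with 10 to 11 A and 101 CPM over the 9 with 12 to 13 A. The groups overlapped, with ranges of 0.0169 to 57.8 CPM, 0.0187 to 31.8 CPM and 0.0272 to 365 CPM in this order. A count and histone class were not separated. Over the 63 members Spearman's rho between the A count and the mean CPM was 0.378, a description over genes that share the same libraries. The part of A-rich stretches in these levels was not tested.

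The members differed by cell cycle phase. Summed over all members, the level in G1 cells was 707 to 931 CPM over the 8 libraries of experiment 3 (median 786), in S cells 2573 to 3467 CPM (median 3213) and in G2M cells 2944 to 3962 CPM (median 3505). The ranges of G1 and S did not overlap, and the S to G1 ratio within a library lay between 3.60 and 4.32. Phases were called by the authors from the same counts, and the gene lists behind them are not given in the sources used here. The lists of cycle genes in common default use hold no histone gene of this family. If those were used, a phase groups cells by transcripts other than those of the members. Those lists do hold some of the other genes named below.

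**Figure D1:**
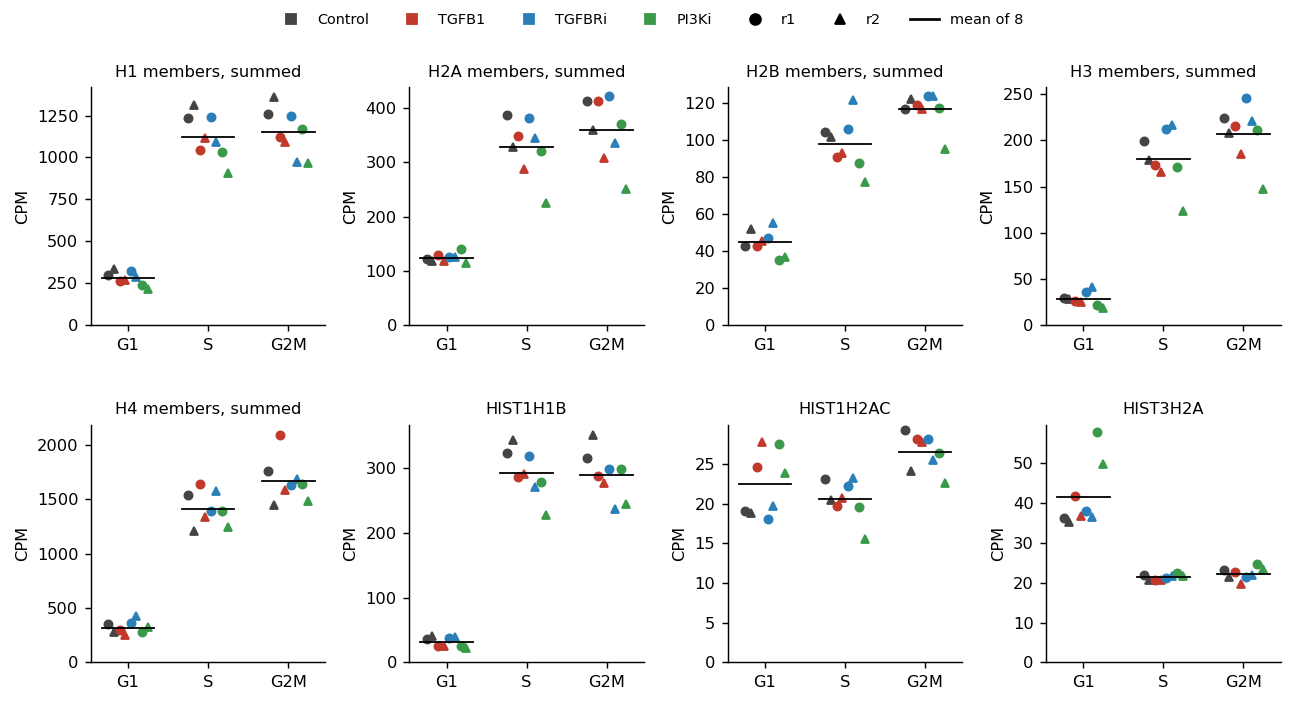
CPM (vertical axes, each panel with its own scale from 0) of the 5 histone classes, each summed over its members, and of 3 single members in G1, S and G2M cells of experiment 3, with 1 point per library (colour for the treatment, circles for r1 and triangles for r2) and a line at the mean of the 8 libraries. HIST1H1B sits at 22.4 to 41.6 CPM in G1 and 228 to 344 CPM in S cells, HIST1H2AC overlaps between these phases, and HIST3H2A goes from 35.1 to 57.7 CPM in G1 to 20.7 to 22.5 CPM in S cells.

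Counts were summed per library and phase and tested with edgeR's quasi-likelihood test with a term for library, where a call is an adjusted p of at most 0.05 after Benjamini-Hochberg adjustment over 14881 genes. Of the 63 members 56 passed the filter on low counts. In S against G1 cells 50 of the 56 rose and 3 fell, while 25.1% of all genes tested were called higher and 28.8% lower. The median log2 fold change was 1.99 over these members and -0.03 over all genes. All classes rose, with 5 of 5 H1, 12 of 14 H2A, 14 of 17 H2B, 9 of 10 H3 and 10 of 10 H4 genes called higher. The median was lowest in H2B (1.51) and highest in H2A (2.19) on the log2 scale.

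The 4 largest differences between S and G1 among members of at least 5 CPM were in genes of H1 and H3. HIST1H1A, a linker histone gene, had 0.994 to 3.61 CPM in G1 (median 2.12) and 25.2 to 43.1 CPM in S cells (median 29.8). Its log2 fold change was 3.86 ± 0.09 (SE; adjusted p = 1.924e-21). HIST1H3G (H3) had 1.58 to 5.38 CPM in G1 and 22.7 to 43.4 CPM in S cells, and rose by 3.48 ± 0.08 (adjusted p = 2.777e-22). HIST1H1B had 22.4 to 41.6 CPM in G1 and 228 to 344 CPM in S cells and rose by 3.20 ± 0.06 (adjusted p = 3.977e-23). The groups did not overlap in any of these genes. HIST1H3F (H3) rose by 3.09 ± 0.09.

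Of the 6 most abundant members, HIST1H1B is one of the 4 above and the other 5 rose by 1.34 to 2.12 on the log2 scale. HIST1H4C had 236 to 406 CPM in G1 (median 303) and 1158 to 1590 CPM in S cells (median 1337), a log2 fold change of 2.12 ± 0.06 (adjusted p = 3.276e-20). HIST2H2AC had 21.4 to 41.0 CPM in G1 and 90.5 to 187 CPM in S cells, a log2 fold change of 2.08 ± 0.03 (adjusted p = 5.384e-25). HIST1H1D rose by 1.89 ± 0.03, HIST1H1C by 1.46 ± 0.04 and HIST1H1E by 1.34 ± 0.03, and HIST1H2BH, the H2B gene of the highest level, by 1.51 ± 0.07. Within H1, the linker histones thus ran from 1.34 to 3.86 on the log2 scale of the fold change, and HIST1H1A and HIST1H1B had the larger values.

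A small set of members fell, was not called or rose by less than the others of at least 5 CPM. HIST3H2A (H2A) had 35.1 to 57.7 CPM in G1 (median 37.3) and 20.7 to 22.5 CPM in S cells (median 21.4), with no overlap. Its log2 fold change was -0.97 ± 0.06 (adjusted p = 2.519e-13). HIST1H2AC (H2A) had 18.1 to 27.7 CPM in G1 and 15.5 to 23.2 CPM in S cells, ranges that overlapped, and was not called (log2 fold change -0.16 ± 0.09, adjusted p = 0.1076). HIST1H2BG (H2B) rose by 0.22 ± 0.07 (adjusted p = 0.01395) and HIST1H2BN (H2B) by 0.81 ± 0.06.

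Among members under 5 CPM, chosen for mention after their values were seen, HIST1H2BD (H2B) fell from 3.21 to 4.86 CPM in G1 to 1.29 to 2.65 CPM in S cells, a log2 fold change of -1.14 ± 0.12 (adjusted p = 1.195e-08). HIST2H2BE (H2B) fell by 0.63 ± 0.11 on the log2 scale (adjusted p = 4.127e-05). HIST3H2BB (H2B) at -0.11 (adjusted p = 0.3428) and HIST2H3PS2 (H3) at -0.24 (adjusted p = 0.06681) were the other members not called. When sums were scaled to the number of cells in place of the UMI total, the log2 fold change of HIST1H2AC was 0.12, the opposite sign, and was not called either.

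**Figure D2:**
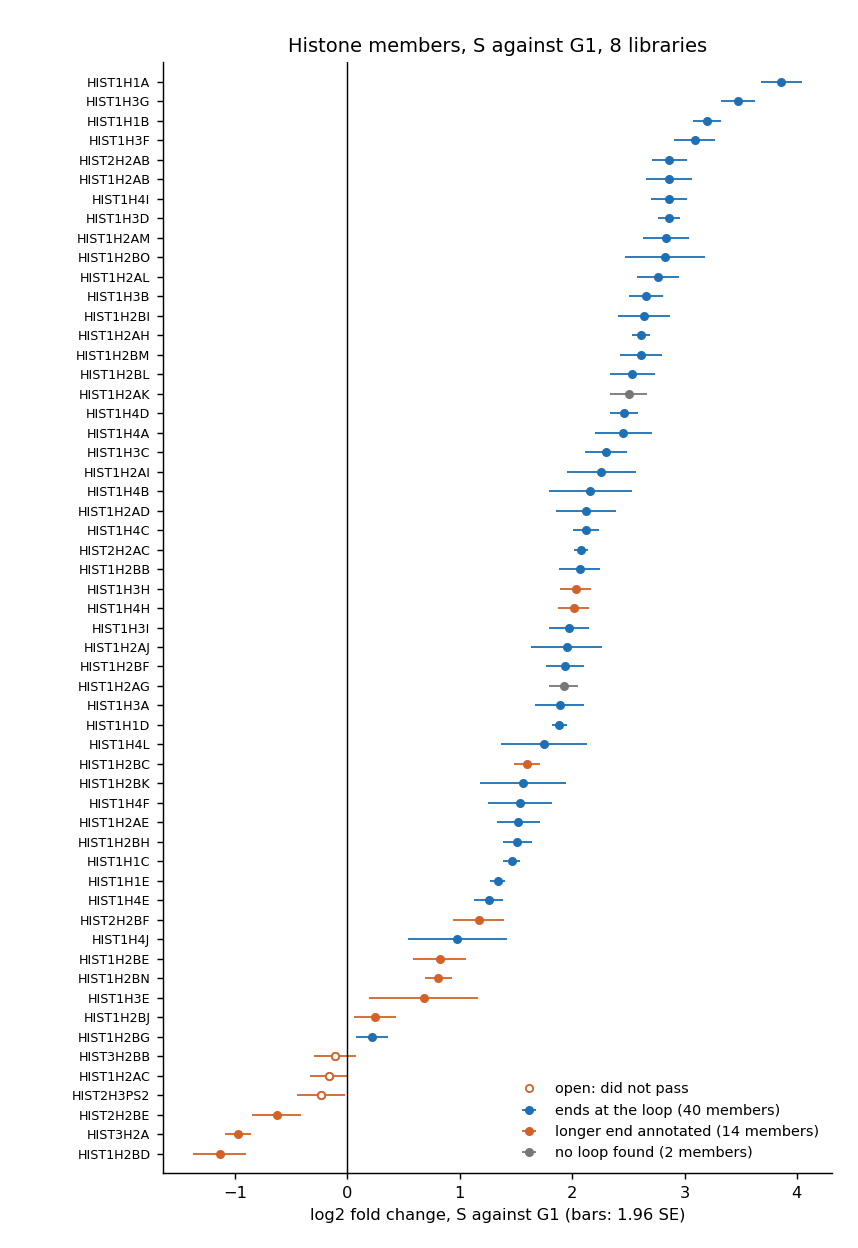
Log2 fold change of S against G1 cells in experiment 3 (horizontal axis) for each of the 56 members tested (rows, ordered by value), with bars of the 95% interval from the SE and open markers for members not called. Colours mark members whose annotated transcripts end at the stem-loop (40), run further (14) or have no loop match (2), and all 6 members below 0 are in the second group.

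In G2M against G1 cells 52 of the 56 members rose and 3 fell, with a median log2 fold change of 2.12. Among all genes tested 30.3% were called higher and 33.4% lower. Summed over members the level was higher in S than in G2M cells in 1 of 8 libraries. In S against G2M cells 4 members were higher and 27 lower, with a median of -0.19, and 30.1% and 29.7% of all genes tested were called in these directions. The 4 higher in S were HIST1H2AK (log2 fold change 0.51 ± 0.06), HIST1H4I (0.39 ± 0.06), HIST1H3I (0.17 ± 0.07) and HIST1H2AH (0.14 ± 0.03), where HIST1H3I was chosen after its value was seen. HIST1H4H was the furthest in the other direction among members of at least 5 CPM, with -0.62 ± 0.05, followed by HIST1H3F with -0.37 ± 0.06 and HIST1H2AC with -0.36 ± 0.08. Those lower in S were 2 of 5 H1, 4 of 14 H2A, 10 of 17 H2B, 6 of 10 H3 and 5 of 10 H4 genes, and the difference between classes was not tested.

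Other genes of the histone pathway moved less than the members or in both directions. Of 11 replication-independent histone genes tested, 6 rose and 3 fell in S against G1 cells, with a median log2 fold change of 0.06. The rises were led by H2AFX (1.90 ± 0.05), whose mRNA is known in a stem-loop form and a poly(A) form, and by the centromere histone gene CENPA (1.31 ± 0.10). HIST4H4, an H4 gene known as replication-dependent whose symbol lies outside the 3 prefixes, rose by 1.24 ± 0.06 and was left out of these counts after the values were seen. With it they were 7 of 12 and the median 0.14. The falls were H1F0 (-0.58), H2AFJ (-0.13) and H3F3B (-0.05). Of 22 genes that act in histone transcription, 3′ processing or decay, 12 rose and 4 fell, with a median of 0.21.

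In that list CCNE2, a cyclin of the G1 to S transition, rose by 3.72 ± 0.07, the phosphatase gene CDC25A by 1.95 ± 0.07 and SLBP by 1.24 ± 0.04. SLBP was also higher in S than in G2M cells by 1.195 and was not called in G2M against G1 (0.04, adjusted p = 0.3841), while 4 of 56 members were higher in S than in G2M cells. SLBP and CCNE2 are in the S phase list that is commonly used to call phases, and HJURP and CENPA in the G2M list, so their phase values are partly built in. The other genes of the histone pathway lists were not checked against those phase lists. Their counts of rises and falls can therefore be partly built in as well. TUT7 (-0.27), XRN1 (-0.12) and LSM10 (-0.12) fell. NPAT, a coactivator of these histone genes that was chosen after its value was seen, rose by 0.44 ± 0.05. Of 16 histone chaperone genes 11 rose and none fell, a median of 0.35, led by HJURP (3.38 ± 0.09), ASF1B (2.56 ± 0.06) and CHAF1A (1.63 ± 0.05). NAP1L1 was not called (-0.04).

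All 16 genes of the DNA replication list rose in S against G1, with a median of 1.61, and all 16 were higher in S than in G2M cells, with a median of 1.40. They included RRM2 (3.56 ± 0.10 in S against G1) and CDC6 (2.096 ± 0.06). The 8 genes of the G2 and mitosis list were all lower in S than in G2M. Both lists overlap the lists that are commonly used to call phases, so their directions are partly built in.

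Members grouped by their annotated 3′ end had different phase values. In GENCODE 44, 45 members end within 100 bases of the loop, 16 have at least 1 transcript that runs further, and 2 are those without a loop match. Among the 16 longer ends 14 carry AATAAA, the common polyadenylation signal, in their last 40 bases. Of the members that end at the loop 40 were tested in S against G1 and all 40 rose, with a median log2 fold change of 2.21, from 0.22 (HIST1H2BG) to 3.86 (HIST1H1A). Of the 14 tested members with a longer end, 8 rose, 3 fell and 3 were not called, with a median of 0.46, from -1.14 (HIST1H2BD) to 2.03 (HIST1H3H). The 25.1% called higher among all genes tested is the background of both counts. The 6 members with a fold change below 0 were all in the longer-end group. The grouping comes from the annotation and not from the counts, and it was made with the phase values of the members known.

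In the other experiments the sums of these groups also differed, as levels without a test. In experiment 1 the 44 members that end at the loop summed to 440.5 CPM in G1 and 1453 CPM in S cells, and 40 of them were higher in S. The 16 with longer ends summed to 163 CPM in G1 and 79.5 CPM in S cells, and 12 of them were lower in S. In this experiment 73.7% of primed and 25.5% of drug-susceptible cells were in G1. The sums of these groups were not taken within a state. In experiment 2 these sums went from 222.7 to 1368 CPM for 37 members that end at the loop and from 59.6 to 65.2 CPM for 15 with longer ends, of which 36 and 7 members were higher in S. In experiment 3 they went from 676.5 to 2988 CPM and from 95.9 to 98.9 CPM, and 44 of 45 and 10 of 16 members were higher in S.

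Pairs of members that share 1 promoter region showed that neighbours could differ. A total of 22 members form 11 pairs whose starts face away from each other on opposite strands, with 193 to 250 bases between them. Of the 3 pairs printed here, the first holds a member that rose strongly beside one that fell, the second holds the member that fell the most among those of at least 5 CPM, and the third holds HIST1H2AC. The stretch between the starts is given on the plus strand of hg38, and capitals mark the TATA box (TATAAA), the CCAAT box (spelled as its name) and the octamer (ATTTGCAT) on either strand.
HIST2H2BE and HIST2H2AC, chr1:149886683-149886917: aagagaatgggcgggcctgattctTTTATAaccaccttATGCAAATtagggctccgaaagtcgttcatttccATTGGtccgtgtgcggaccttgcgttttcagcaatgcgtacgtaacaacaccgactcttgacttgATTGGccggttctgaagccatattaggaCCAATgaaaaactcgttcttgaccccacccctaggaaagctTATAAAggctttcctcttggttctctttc
HIST3H2A and HIST3H2BB, chr1:228457874-228458102: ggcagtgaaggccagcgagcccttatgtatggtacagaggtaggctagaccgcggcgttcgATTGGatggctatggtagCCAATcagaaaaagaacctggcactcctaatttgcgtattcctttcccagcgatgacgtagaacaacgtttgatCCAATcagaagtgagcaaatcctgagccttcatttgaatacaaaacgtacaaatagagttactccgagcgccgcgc
HIST1H2BC and HIST1H2AC, chr6:26123927-26124171: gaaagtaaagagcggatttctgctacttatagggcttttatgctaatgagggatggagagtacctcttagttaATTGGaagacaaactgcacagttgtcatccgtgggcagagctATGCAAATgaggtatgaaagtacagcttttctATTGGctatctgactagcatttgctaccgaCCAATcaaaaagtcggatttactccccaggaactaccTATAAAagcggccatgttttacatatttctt

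In the first pair, HIST2H2BE on the minus side had a log2 fold change of -0.63 in S against G1 and HIST2H2AC on the plus side had 2.08. In the second, HIST3H2A had -0.97 and HIST3H2BB -0.11. In the third, HIST1H2BC (H2B, chosen after its value was seen) rose by 1.60 ± 0.06 and HIST1H2AC had -0.16. In the first pair HIST2H2BE has a longer annotated end and HIST2H2AC ends at the loop, while in the other pairs both members have a longer end. The HIST3 stretch held 3 matches to the CCAAT box and no match to the TATA box or the octamer. The HIST2 stretch held 2 matches to the TATA box, 3 to the CCAAT box and 1 to the octamer, and the HIST1 stretch held 1, 3 and 1 in this order.

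Of the 63 members 58 had an entry among the RefSeq promoters, and the 250 bases before the start were searched. The TATA box was found on either strand in 36 of them (62.07%) against 10.72% of 35116 promoters, and the CCAAT box in 51 (87.93%) against 32.01%. The octamer, the site of POU2F1, was found in 23 members (39.66%) against 1.632% of all promoters. It was held by 10 of 15 H2A and 13 of 17 H2B promoters and by none of H1, H3 or H4. Paired members share the stretch between their starts, and both strands were searched. The same site can thus count for both members of a pair, for each of the motifs, so these are not counts of separate sites. The CCAAT box was in every promoter of H1, H2A, H2B and H3 and in 3 of 10 of H4. HIST1H4C was among the members with no entry.

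Within a called phase the members were far from uniform. In experiment 3 the median cell had 709 CPM of member UMIs in G1, 1541 CPM in S and 1714 CPM in G2M. The upper quartile was 976 CPM in G1, 5077 CPM in S and 5970 CPM in G2M, so in S and G2M a share of cells was much higher than the median. S cells of each library were divided into 4 equal bins by the authors' G2M score, a per-cell score of mitotic transcripts. The summed level rose at each step in 8 of 8 libraries, with means of 920.7, 1338, 3520 and 6434 CPM from the lowest to the highest bin. The ratio of the last to the first bin was 6.15 to 7.60 (median 6.97). This is a description with no test, since the score and the levels come from the same cells.

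Members differed in this ratio as they did between phases. It was 12.69 to 19.02 for HIST1H1A (median 14.8), with a median of 12.2 for HIST1H1B and 7.08 for HIST1H4C. HIST1H2AC, which was not called between S and G1 cells, had a median ratio of 4.01 and rose from a mean of 9.29 to 38.04 CPM between the first and last bin. HIST3H2A had a ratio of 0.474 to 1.01 (median 0.763). For comparison, chosen after their values were seen, the median ratio was 1.098 for SLBP, 1.60 for the replication clamp gene PCNA and 2.62 for the mitotic cyclin gene CCNB1.

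In G2M cells divided the same way the summed members rose from the first to the second bin in 8 of 8 libraries, from a mean of 3089 to 4769 CPM, and were lowest in the last bin with a mean of 2211 CPM. The ratio of the last to the first bin was 0.573 to 0.885 (median 0.724), below 1 in every library. HIST1H4C (median 0.729), HIST1H1B (0.665) and HIST2H2AC (0.555) were below 1 there, while HIST1H2BH had 1.015. CCNB1 had 2.32 in the same cells.

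**Figure D3:**
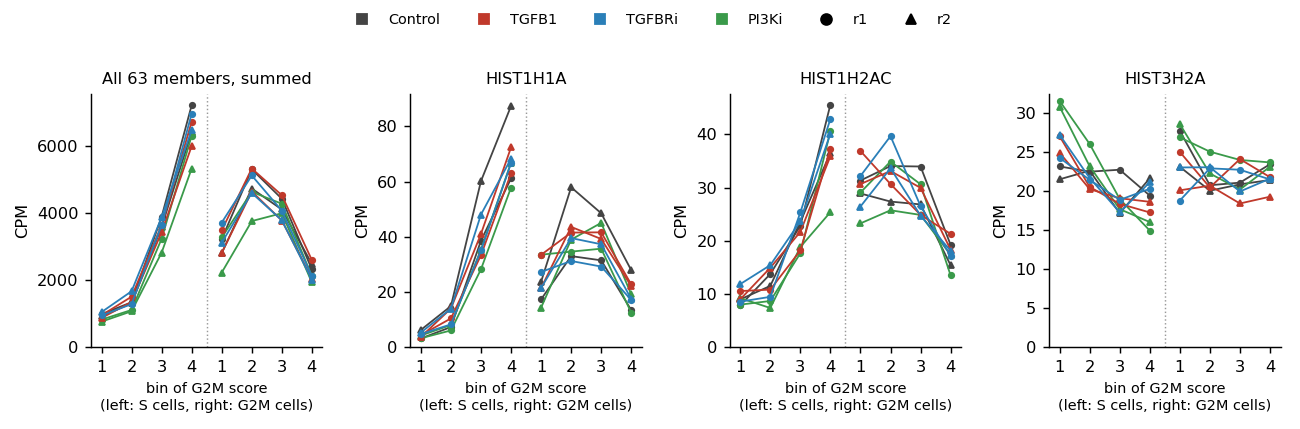
CPM (vertical axes, each panel with its own scale from 0) of all members summed, HIST1H1A, HIST1H2AC and HIST3H2A by bin of the authors' G2M score, from 1 (lowest) to 4 (horizontal axis), in S cells on the left and G2M cells on the right of each panel, with 1 line per library of experiment 3. In S cells all 8 lines of the sum climb, from a mean of 920.7 CPM to a mean of 6434 CPM, and in G2M cells they peak in bin 2 or 3 and end at a mean of 2211 CPM, while HIST3H2A has a ratio of the last to the first bin of 0.474 to 1.01 in S cells.

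The phase difference was found in all 3 experiments but not at the same size. Summed over members and cells, G1, S and G2M cells had 608, 1541 and 1428 CPM in experiment 1, 285, 1449 and 1574 CPM in experiment 2 and 782, 3127 and 3474 CPM in experiment 3. The S to G1 ratio was 2.54 in WM989 of experiment 1 (2.42 in r1 and 2.69 in r2), 5.09 in WM983B and 4 in WM989 of experiment 3 (4.12 in r1 and 3.89 in r2). With the cells of an experiment thinned to 1 depth, of 10000, 30000 and 5000 UMIs in experiments 1, 2 and 3, it was 2.54, 4.98 and 3.88. In drug-susceptible cells alone it was 3.146, 5.648 and 4.06. Experiments 1 and 3 are of the same line and differ in chemistry run, culture, depth per cell and share of primed cells, and experiment 2 differs from both in line as well, so these cannot be told apart.

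Over all cells the members held 1180 CPM in experiment 1, 1164 CPM in experiment 2 and 2435 CPM in experiment 3. HIST1H4C led in each, with 510, 499 and 1072 CPM, which was 43.25%, 42.86% and 44.02% of the member UMIs. The linker histones were less alike. HIST1H1A had 16.3 CPM in experiment 1, 81.6 CPM in experiment 2 and 21.2 CPM in experiment 3. HIST1H1D had 164 CPM in experiment 1 and 360 CPM in experiment 3. In WM983B HIST1H1D and HIST1H3G had 0 UMIs and HIST1H4I had 7, under the limit of 10. The member sums of experiment 2 therefore do not hold these genes. With 1 library of WM983B no test of these differences was made.

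In experiment 1, over both states, 12 longer-end members and 4 that end at the loop were lower in S than in G1. HIST1H2AC and HIST3H2A were the most abundant of these. HIST1H2AC had 58.2 CPM in G1, 12.2 CPM in S and 29.2 CPM in G2M cells of experiment 1, and the exact Poisson intervals of G1 (57.3 to 59.1) and S (11.8 to 12.6), at 95% and for counting error only, lay far apart. In experiment 2 its values were 13.9, 9.95 and 12.3 CPM in this order. HIST3H2A had 53.5, 32.2 and 30.3 CPM in experiment 1 and 18.2, 12.8 and 13.8 CPM in experiment 2. HIST1H1C had 130, 137 and 134 CPM in experiment 1, where the states differ in their phases, and in drug-susceptible cells alone 84.4, 132 and 122.7 CPM. It had 51.7, 158 and 178 CPM in experiment 2.

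**Figure D4:**
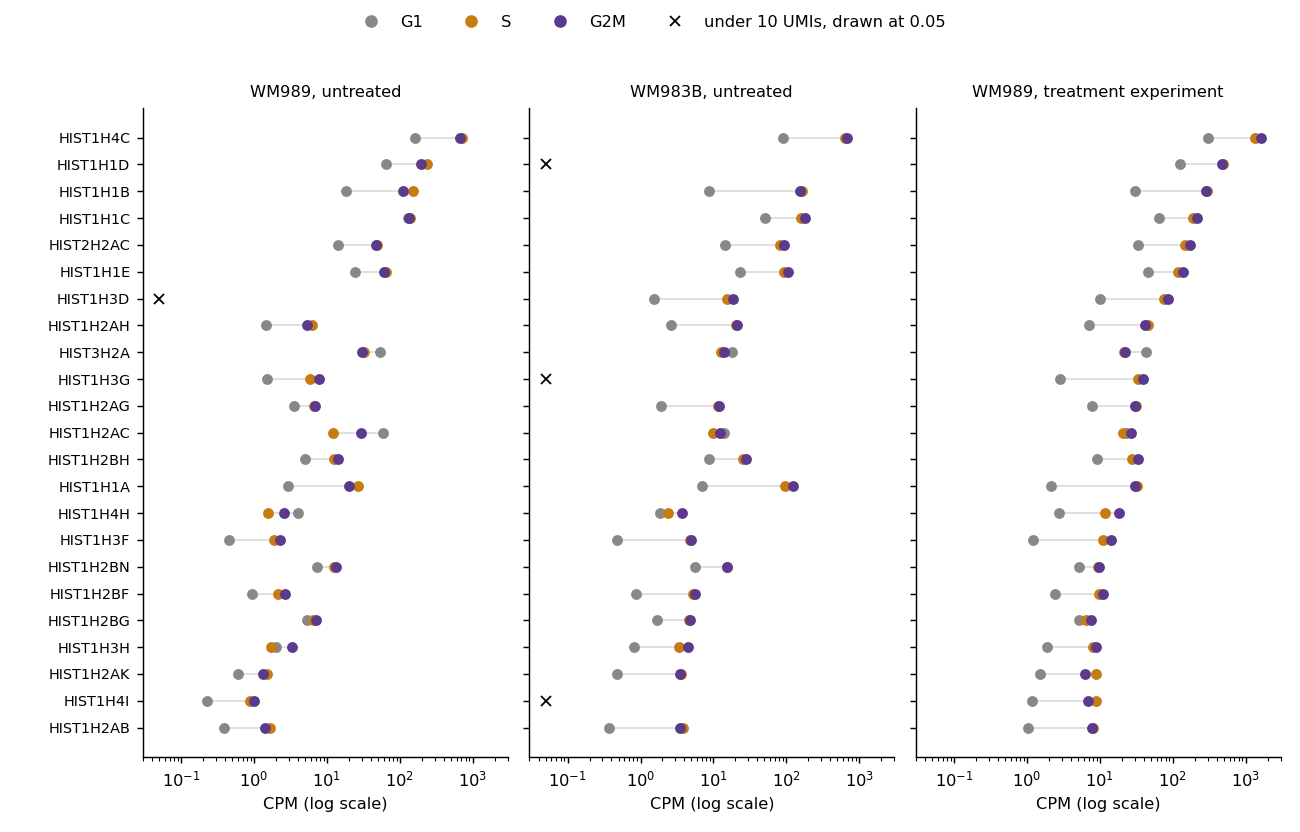
CPM (horizontal axes, log scale) of the named members (rows) in G1, S and G2M cells of experiments 1, 2 and 3 (panels from left to right), each point a sum over all cells of a phase, and crosses for members under 10 UMIs. HIST1H4C is the most abundant member in every panel, and HIST3H2A is highest in G1 cells in all 3.

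Primed cells differed in their phases, so states were compared within a phase, as levels with no test because states were called from the same counts. In experiment 1, 25.5% of drug-susceptible and 73.7% of primed cells were in G1. Over all cells the primed to drug-susceptible ratio of the members was 0.820, and within G1, S and G2M cells it was 1.48, 1.08 and 1.32. In experiment 2 the ratio was 0.900 over all cells and 1.03, 0.827 and 1.11 by phase. In experiment 3 it was 1.03 over all cells and 1.09, 0.893 and 1.41 by phase, but 3334 of the 4077 primed cells (81.8%) came from the TGFB1 libraries, so state and treatment are mixed in these values. Within the TGFB1 libraries the ratio was 1.125 over all cells and 1.18, 0.915 and 1.53 by phase, and within the other 6 libraries, with 743 primed cells, it was 0.811 and 1.153, 0.746 and 1.23. The ratio over all cells therefore did not carry over to cells of the same phase in experiment 1.

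The G1 difference of experiment 1 was uneven among members. HIST1H2AC had 44.6 CPM in drug-susceptible and 70.9 CPM in primed G1 cells, and 12.2 and 12.1 CPM in S cells. HIST1H1C had 84.4 and 174 CPM in G1 cells, and HIST3H2A went the other way with 68.4 and 39.6 CPM. In the TGFB1 libraries of experiment 3 HIST1H2AC had 22.3 CPM in drug-susceptible and 34.6 CPM in primed G1 cells, and 20.3 and 19.9 CPM in S cells. In the other 6 libraries it had 21.04 and 43.4 CPM in G1 cells and 20.5 and 22.6 CPM in S cells. In WM983B it had 7.63 and 19.2 CPM in G1 cells.

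The wells of experiment 1 fell into 2 ranges of primed cells, 56.9 to 79.7% in wells 1, 2, 5 and 6 and 6.85 to 9.42% in wells 3, 4, 7 and 8. In G1 cells the members summed to 653 to 719 CPM in the first 4 wells and 497 to 537 CPM in the others. HIST1H2AC in G1 cells had 56.5 to 80.5 CPM in the first and 40.3 to 47.2 CPM in the others, while in S cells all 8 wells lay between 8.95 and 15.4 CPM. Each culture was loaded into 2 wells of the chip, so pairs of wells hold the same culture and the 8 wells are not 8 samples. These ranges divide wells by a measured share and not by a label, and no test was made.

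By the authors' clusters the members were concentrated. In experiment 3 clusters 1 and 8 had 6357 and 5786 CPM, of which 54.5% and 58.2% of cells were in S. The lowest were cluster 6 with 700.2 CPM and cluster 9 with 731 CPM, with 73.2% and 69.6% of cells in G1. Clusters 4 and 10 were primed, and cluster 4 had 2650 CPM. In experiment 1 cluster 1 had 3011 CPM and cluster 9 had 1955 CPM, followed by cluster 3 with 1043 CPM, and the others lay between 527 and 787 CPM. Clusters 2, 8 and 9 of experiment 1 were primed. Of cells of cluster 9 62.9% were in G2M, while 93.8% and 84.4% of those of clusters 2 and 8 were in G1. Cluster 0 of experiment 1 held 78.2% S cells and yet had 667 CPM, while 67.1% of cells of cluster 1 were in S. In experiment 2 the 4 clusters lay between 1092 and 1226 CPM. Histone genes may themselves have shaped the clusters, and no test was made.

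The treatments were compared with Control in experiment 3, first over all cells. Sums over all cells do not tell fewer cells in S phase from less mRNA per cell. The share of G1 cells was 34.0 and 32.7% in Control, 43.6 and 44.1% in PI3Ki, 44.1 and 44.1% in TGFB1 and 31.0 and 32.0% in TGFBRi (r1 and r2). The summed members had 2763 and 2559 CPM in Control, 2251 and 1914 CPM in PI3Ki, 2562 and 2236 CPM in TGFB1 and 2780 and 2658 CPM in TGFBRi. Both PI3Ki libraries lay below both Control libraries. In TGFB1, r1 lay between the Control libraries and r2 below them, and in TGFBRi r1 lay above and r2 between them. Each treatment was tested in edgeR against the same Control libraries, with a term for replicate and adjustment over 18389 genes, and 58 of the 63 members passed the filter.

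With PI3Ki 32 of 58 members fell and 1 rose, against 6.83% of all genes called lower and 5.83% higher, and the median log2 fold change was -0.38. The falls took in 5 of 5 H1, 9 of 14 H2A, 8 of 17 H2B, 7 of 11 H3 and 3 of 11 H4 genes. HIST1H2AB (H2A) had 6.91 and 6.29 CPM in Control and 4.77 and 3.3001 CPM in PI3Ki, and fell by 0.64 ± 0.11 on the log2 scale (adjusted p = 0.0003041). HIST2H2AC had 150.4 and 123.18 CPM in Control and 114 and 67.6 CPM in PI3Ki and fell by 0.53 ± 0.08 (adjusted p = 0.0001008). HIST1H2AG fell by 0.51 ± 0.08 and HIST1H1B by 0.46 ± 0.08. Both PI3Ki libraries lay below both Control libraries in each of these 4 genes. HIST1H4C, the most abundant member, had a ratio to Control of 0.8225 in r1 and 0.9364 in r2. The member that rose was HIST3H2A, with 26.7 and 25.2 CPM in Control and 36.7 and 33.6 CPM in PI3Ki (log2 fold change 0.54 ± 0.07, adjusted p = 8.423e-06).

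The PI3Ki count rested on library r2. Here and below, repeats that left out a library or the replicate term or used DESeq2 have no share of all genes called beside them. It was 3 without PI3Ki r2, 14 without Control r2 and 4 without the replicate term. None of the 16 DNA replication genes was called by edgeR with PI3Ki in all cells, with 4 at an unadjusted p under 0.05. Of the 8 genes of the G2 and mitosis list 5 fell and none rose, with a median of -0.23.

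With TGFB1 21 of 58 members fell and none rose, against 12.7% of all genes called lower and 16.3% higher, with a median of -0.23. They were 4 of 5 H1, 7 of 14 H2A, 4 of 17 H2B, 4 of 11 H3 and 2 of 11 H4 genes. HIST1H4I (H4) had 7.45 and 5.90 CPM in Control and 4.15 and 3.93 CPM in TGFB1, and fell by 0.73 ± 0.10 (adjusted p = 9.469e-06). HIST1H1E had 116 and 125 CPM in Control and 89.8 and 92.6 CPM in TGFB1 and fell by 0.42 ± 0.08 (adjusted p = 0.0002034). HIST1H1B fell by 0.40 ± 0.08 (adjusted p = 0.0006863). HIST1H4C was not called, with 1200 and 965 CPM in Control and 1244 and 974 CPM in TGFB1. In the same test 7 of 16 DNA replication genes fell and 1 rose.

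The TGFB1 count was 7 without Control r2, 7 without TGFB1 r1, 12 without TGFB1 r2, 7 without the replicate term and 13 with DESeq2. The share of primed cells, 29.1 and 31.3% in TGFB1 against 2.26 and 4.47% in Control, moved with this treatment. In drug-susceptible cells alone 19 of 57 members fell with TGFB1, with a median of -0.28, against 6.32% of all genes called lower and 8.56% higher.

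With TGFBRi 1 of 58 members was called. HIST1H3G had 28.5 and 25.4 CPM in Control and 33.3 and 32.7 CPM in TGFBRi and rose by 0.31 ± 0.08 (adjusted p = 0.02686), where 1.09% of all genes were called higher and 1.45% lower. The median of the members was 0.16. For the repeats that follow the share of all genes called was not taken. Without TGFBRi r1 there were 15 calls, 14 of them higher, and without either Control library there was none.

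S cells alone were then compared, which sets aside the shares of called phases but not the position of cells within S. The summed members had 3467 and 3130 CPM in Control, 3006 and 2573 CPM in PI3Ki, 3296 and 2997 CPM in TGFB1 and 3331 and 3349 CPM in TGFBRi, so only PI3Ki lay below both Control libraries in both replicates. The ratio to Control in r1 and r2 was 0.867 and 0.822 for PI3Ki, 0.951 and 0.958 for TGFB1 and 0.961 and 1.07 for TGFBRi. With PI3Ki it was 0.837 and 0.688 for the H1 sum. The H4 sum, with 0.903 and 1.03, and HIST1H4C, with 0.904 and 1.04, did not fall in both replicates. When S cells were placed in 4 bins of the G2M score with edges common to all libraries, the lowest bin held 26.4 and 29.3% of S cells in Control, 32.4 and 30.6% in PI3Ki, 23.8 and 21.9% in TGFB1 and 22.8 and 17.7% in TGFBRi. In each of the 4 bins both PI3Ki libraries lay below both Control libraries, with 847 and 789 against 993 and 962 CPM in the lowest and 6325 and 5279 against 7338 and 6419 CPM in the highest. With adjustment over 15588 genes 17 of 57 members fell and none rose with PI3Ki, a median log2 fold change of -0.29, against 5.13% of all genes called lower and 4.2% higher.

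These 17 were 5 of 5 H1, 4 of 14 H2A, 3 of 17 H2B, 4 of 11 H3 and 1 of 10 H4 genes. The H1 genes ran from -0.30 ± 0.07 (HIST1H1E) to -0.34 ± 0.08 (HIST1H1B). HIST1H2AB had 9.52 and 8.98 CPM in Control and 7.28 and 4.99 CPM in PI3Ki and fell by 0.56 ± 0.13 (adjusted p = 0.004693). HIST1H2BF (H2B) fell by 0.46 ± 0.12 and HIST2H2AC by 0.45 ± 0.08. The count was 0 without PI3Ki r2, 9 without Control r1, 8 without Control r2, 7 with DESeq2 and 1 without the replicate term.

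With TGFB1 9 of 57 members fell in S cells and none rose, a median of -0.17, against 8.33% of all genes called lower and 11% higher. They were 4 H1 genes, HIST1H4I (-0.51 ± 0.12, adjusted p = 0.002122), HIST1H2BG (-0.41 ± 0.13), HIST1H3H (-0.40 ± 0.12), HIST1H2AL and HIST1H2AG, where HIST1H2AL (-0.36 ± 0.09) was named because it completes the count. Without TGFB1 r1 the count was 1, without Control r2 it was 4 and without either TGFBRi library it was 15. It was 4 with DESeq2 and 3 without the replicate term. In drug-susceptible S cells 6 of 57 members fell, with a median of -0.12, against 5.28% of all genes called lower and 7.37% higher. Over S cells of both states 3 of 16 DNA replication genes rose with TGFB1 and 2 with PI3Ki, and none fell. Genes of this list are commonly used to call S cells, so these counts are partly built in. With TGFBRi HIST1H3G alone was called (0.31 ± 0.08, adjusted p = 0.04677), against 1.01% of all genes called higher and 1.44% lower, and DESeq2 called none. Without TGFBRi r1 there were 13 calls, 12 of them higher, and without TGFBRi r2 there was none.

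**Figure D5:**
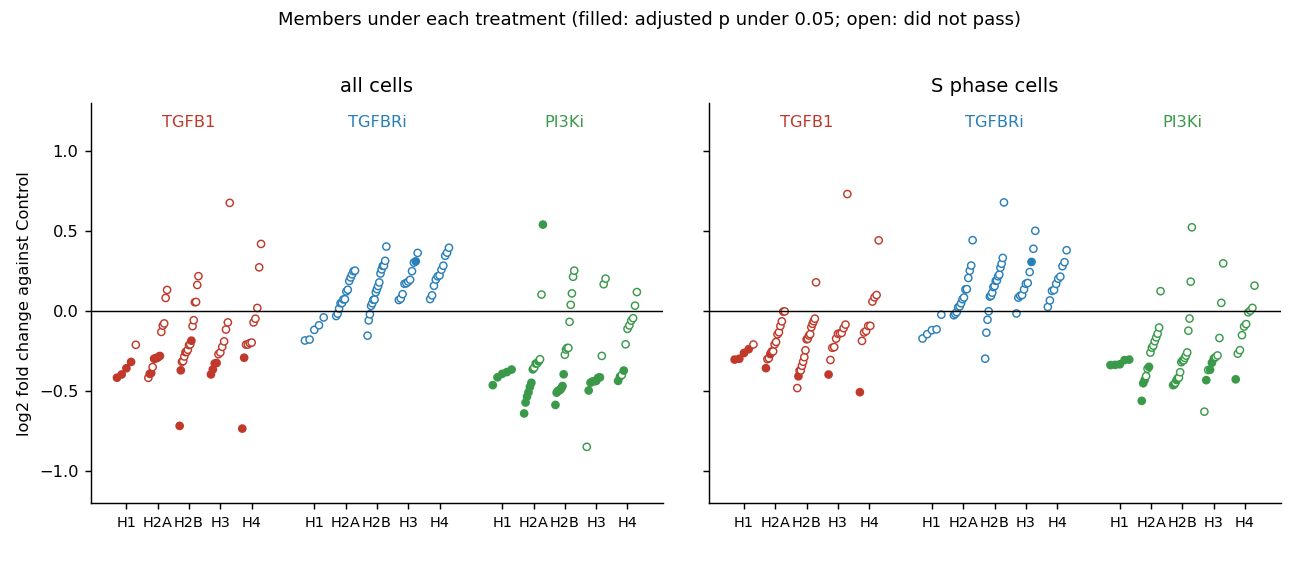
Log2 fold change against Control from edgeR (vertical axis) of each tested member, grouped by histone class and ordered by value within it (horizontal axis), for the 3 treatments over all cells on the left and in S cells on the right, with filled points for members called. With PI3Ki over all cells the 32 filled points below 0 span all 5 classes and the 1 above 0 is HIST3H2A, and with TGFBRi 1 point is filled in each panel.

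A test of the difference in the S to G1 fold between a treatment and Control named a few members, with adjustment over 16115 genes. With TGFB1 2 of 57 members had a larger and 3 a smaller fold than in Control, where 6.45% and 4.32% of all genes were called in these directions. The fold of HIST1H1B was larger by 0.36 ± 0.07 on the log2 scale (adjusted p = 0.0002676) and that of HIST1H4C by 0.32 ± 0.06 (adjusted p = 0.0002064). The smaller folds differed by -0.58 ± 0.09 for HIST1H2AC (adjusted p = 7.687e-06), -0.27 ± 0.06 for HIST1H1C (adjusted p = 0.001137) and -0.81 ± 0.24 for HIST2H2BE (adjusted p = 0.02049). DESeq2 called 1 larger and 2 smaller folds, and without the replicate term no member was called.

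With PI3Ki 2 members had a larger and 2 a smaller fold, against 1.81% and 0.999% of all genes. HIST1H2AC had 27.5 and 23.9 CPM in G1 cells of PI3Ki and 19.1 and 18.9 CPM in those of Control, and 19.6 and 15.5 CPM against 23.1 and 20.5 CPM in S cells. Its fold differed by -0.81 ± 0.09 (adjusted p = 8.188e-09). HIST3H2A had 57.7 and 49.9 CPM in G1 cells of PI3Ki and 36.3 and 35.1 CPM in those of Control, while S cells of all 8 libraries lay between 20.7 and 22.5 CPM, and its fold differed by -0.57 ± 0.08 (adjusted p = 7.706e-07). For these genes the difference from Control thus stood in G1 cells or in both phases. The fold was larger for HIST1H2BH (0.44 ± 0.12, adjusted p = 0.02062) and HIST1H1B (0.26 ± 0.07, adjusted p = 0.0207). No member was called with a larger fold by DESeq2, without Control r1, without Control r2, without PI3Ki r1 or without the replicate term, and without the replicate term none was called with a smaller fold either.

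With TGFBRi edgeR called no member, 6 had an unadjusted p under 0.05, and 0.0124% and 0.00621% of all genes were called higher and lower. Of the DNA replication list 15 of 16 genes had a larger S to G1 fold with TGFB1 and 9 of 16 with PI3Ki, all called. This list overlaps the lists that are commonly used to call phases. Its folds are therefore partly built in, and the counts are not read as a treatment effect. The 3 comparisons share the Control libraries, so their values are not independent.

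Most members had accessible chromatin at their start in every sorted population. A peak that overlapped 250 bases before to 50 bases after the start was called in all 12 ATAC-seq libraries for 56 of the 63 members, where 60% of 20020 protein-coding genes had one. Members with close starts can share 1 peak, as HIST1H2AD and HIST1H2BF did, and each is counted here and below. HIST1H1T, HIST1H3J, HIST2H2AA3, HIST2H2AA4, HIST2H4A and HIST2H4B had no peak in any library, and HIST1H3E had one in 2 of 12. HIST2H2AA3 with HIST2H2AA4 and HIST2H4A with HIST2H4B are near-identical copies, for which reads may not have been placed.

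The fold enrichment over local background that MACS2 wrote for the peak was highest at the start shared by HIST2H2BE and HIST2H2AC, with 106, 110 and 96.3 in Mix (mean 104 ± 6.92, SD, n = 3) and 99.2 to 125 in the 9 sorted libraries with high EGFR or NGFR. The start shared by HIST3H2A and HIST3H2BB had 89.2, 88.6 and 82.3 in Mix (86.7 ± 3.82), and that of HIST1H2AC 75.3 ± 10.5. These 3 are the printed promoter stretches, and the member that fell and the member that rose in S cells stand at the same peak in the first of them. HIST1H4C, by far the most abundant in UMIs, had 42.1, 37.7 and 36.8 in Mix (38.9 ± 2.85), and HIST1H1B had 35.8 ± 2.18.

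Members whose 3 libraries of a sort did not overlap those of Mix were counted beside all genes with a peak. In EGFR-High, EGFR-NGFR-High and NGFR-High they were 8.93%, 16.07% and 19.64% of members. The shares of all genes were 14.86%, 13.41% and 26.91%, so the counts are not read as a result about the members. In EGFR-High 3 of 56 members lay above and 2 below all Mix libraries, against 3.59% and 11.3% of all genes with a peak. In EGFR-NGFR-High 9 lay above and none below, against 11.1% and 2.27%, and in NGFR-High 11 lay above and none below, against 25.2% and 1.71%. HIST1H4C had 47.3, 40.7 and 44.2 in NGFR-High, which overlapped Mix. With 3 libraries against 3 the smallest exact permutation p is 0.1 (two-sided), so no test was made. With 2 libraries against 2, after leaving out 1 replicate, 26.8 to 51.8% of members and 29.7 to 45.0% of all genes did not overlap in EGFR-NGFR-High, and 32.1 to 39.3% and 43.2 to 58.7% in NGFR-High. The ATAC-seq libraries hold cells of all phases, and the members' phase was not measured in them.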

How the data were processed

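Single-cell libraries were deposited as tables of UMI counts that the authors had made with Cell Ranger against hg38 (its version and annotation were not given in the sources used here) and aggregated without depth normalization, after they had removed low-quality cells and likely doublets. No doublet caller was run here. Cell labels for phase, cluster, state, replicate and treatment were those that the authors deposited, as were the G2M score, a cycle score per cell, the total UMI count per cell and the percent of mitochondrial UMIs. For ATAC-seq the authors deposited peaks called in each library by MACS2 2.1.1.20160309, after Bowtie2 2.3.4.1 and SAMtools 1.1 per the submitters' processing notes, and the fold enrichment (a ratio) and the −log10 q-value stand as deposited.

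Sums of counts were taken over all cells of a library, or over those of 1 phase of it, and CPM was taken against the UMI total of the same cells. Experiment 3 was tested with edgeR 4.0.16 in R 4.3.3 (filterByExpr, TMM factors of 0.920 to 1.056, quasi-likelihood F test, two-sided, Benjamini-Hochberg adjustment over all genes tested, threshold 0.05). Phases were compared with library as a term (24 sums, 14 residual degrees of freedom), and treatments with replicate as a term (8 sums, 3 residual degrees of freedom). The replicate term follows from the starting cells that treatments of a replicate share, and deviations of r2 from r1 correlated across genes for all 6 pairs of treatments, with a Pearson r of 0.256 to 0.365 in all cells and 0.189 to 0.285 in S cells. The change of the S to G1 fold was an interaction term with 8 residual degrees of freedom. SE is the size of the log2 fold change over the square root of F. Libraries are parallel cultures, and those of a replicate began from the same well. For phases the p-values measure the spread of the phase difference between libraries. For treatments they measure the spread of treatment differences between replicates. On simulated data the S against G1 fit recovered 99% of genes changed 1.5-fold among 14926, the TGFB1 fit over all cells 57% among 18172 and the TGFB1 interaction 18% among 15803. The simulated counts had a fixed, assumed spread and no replicate effect, and only genes of higher counts were changed. These percents therefore do not give the share of members that the real fits would recover. In experiments 1 and 2 values are descriptions, and cells were thinned to 10000 UMIs in experiment 1, 30000 in experiment 2 and 5000 in experiment 3 for the thinned ratios.

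Positions, ends and stem-loops come from GENCODE 44 and the hg38 genome, and promoters from RefSeq on the same build. All 63 members matched both by symbol or older symbol. Python 3.11.15, numpy 2.4.6, pandas 2.3.3, scipy 1.17.1 and matplotlib 3.10.9 were used, and DESeq2 1.42.0 was an alternative, beside other scaling, leaving out the replicate term or the filter on low counts, each library left out, and subsets of cells by state, phase or treatment that were added after seeing the data. The members and gene lists were chosen with earlier results of these data known. Named genes are the 8 members of highest CPM in each experiment, the highest of each class, for each edgeR comparison the 3 largest rises and falls among calls of at least 5 CPM with the same sign in r1 and r2, the 4 largest and 4 smallest S to G1 changes of at least 5 CPM, the members next to the limit of 10 UMIs, and the 3 largest rises and falls of each list. Of these lists the report gives the named genes that bear on the members.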

Additional observations from a re-analysis of the deposited data

Results flagged for a closer look

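The S to G1 ratio of HIST1H2AB, a gene of H2A, was 17.99 in PI3Ki r1 of experiment 3, and this library stood apart from the other 7 libraries (Dixon's test, critical value 0.526). A total of 24 such tests were run and chance flags about 1 in 20. HIST1H2AB had 0.405 CPM in G1 cells of that library and 0.725 to 1.69 CPM in those of the others.

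For 9 pairs of member and treatment the S to G1 fold differed from that of Control by edgeR's interaction test with Benjamini-Hochberg adjustment. With TGFB1 these were 5 of 57 members, where 6.45% of all genes had a larger and 4.32% a smaller fold, and with PI3Ki 4 of 57, where these shares were 1.81% and 0.999%. The TGFB1 count is near that background. With TGFB1 the differences on the log2 scale were -0.81 for HIST2H2BE, -0.58 for HIST1H2AC, -0.27 for HIST1H1C, 0.32 for HIST1H4C and 0.355 for HIST1H1B. With PI3Ki they were -0.81 for HIST1H2AC, -0.57 for HIST3H2A, 0.44 for HIST1H2BH and 0.26 for HIST1H1B. Each had the same sign in r1 and in r2. HIST1H2AC and HIST1H1B were called with both treatments, in comparisons that share the Control libraries.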

How the results depend on the processing

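Phase counts held best: with each library left out the calls were 51 to 54 in S against G1, 53 to 54 in G2M against G1 and 28 to 31 in S against G2M. Without the replicate block (the library term) the last was 15. Treatment counts depended on the design. The share of all genes called was not taken in these repeats, so the counts show only how calls moved. Without the replicate block the pairing of r1 and r2 was lost, and over all cells the counts were 7 for TGFB1, 0 for TGFBRi and 4 for PI3Ki, in S cells 3, 0 and 1, and for the S to G1 fold 0 for TGFB1 and 0 for PI3Ki. With 1 library left out they ranged over all cells from 7 to 28, from 0 to 15 and from 3 to 34, in S cells from 1 to 15, from 0 to 13 and from 0 to 21, and for the S to G1 fold from 3 to 6, from 0 to 1 and from 2 to 5 (TGFB1, TGFBRi and PI3Ki). DESeq2 called 13 with TGFB1 over all cells, 4, 0 and 7 in S cells, and 3 and 2 for the fold with TGFB1 and PI3Ki. TGFBRi over all cells gave 3 calls with library totals only, 4 with no filter on low counts, 2 in drug-susceptible cells and 0 in G1 cells, and in S cells 2 with no filter. In G1 cells alone the counts were 6 for TGFB1 (2 higher) and 13 for PI3Ki (4 higher). The cause of these changes was not tested.

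Scaling to the number of cells put the median of all genes in S against G1 at 0.25 in place of -0.03 on the log2 scale, and HIST1H2AC then had 0.12 in place of -0.16, neither called. With library totals only, the median of all genes with PI3Ki was -0.10 and 40 members were called over all cells and 25 in S cells. The share of all genes called was not taken there, so these counts are not read as a result about the members. Of the repeats for single named genes 717 kept direction and call, 63 lost the call, 3 gained it and 1, HIST1H2AC, changed sign.

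Without HIST1H4C the S to G1 ratio of the summed members was 1.83 in experiment 1, 4.15 in experiment 2 and 3.73 in experiment 3. With HIST1H4C kept, the ratio in drug-susceptible cells alone was 3.146 in experiment 1 and 5.648 in experiment 2. The primed to drug-susceptible ratio by phase was 1.48, 1.08 and 1.32 in experiment 1, 1.03, 0.827 and 1.11 in experiment 2 and 1.09, 0.893 and 1.41 in experiment 3, and in experiment 3 it was 1.03 in r1 alone, 1.125 in TGFB1 libraries alone and 0.811 in the others. The ATAC-seq count for EGFR-High was 3 with a window of 1000 bases either side (5.085% of members against 15.16% of all genes), and with 1 replicate left out the counts were 7 to 17 for EGFR-High (12.5 to 30.4% of members against 34.3 to 46.7% of all genes), 15 to 29 for EGFR-NGFR-High and 18 to 22 for NGFR-High, where the share of all genes was 29.7 to 45.0% and 43.2 to 58.7%.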
